A study of Mus musculus with 88 samples.

Results

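The genes described here are those of the core snRNP, SF3, U2AF, LSm, SR and hnRNP families in mouse cortex, chosen by symbol (Sf3a, Sf3b, Srsf or Lsm followed by a digit, or Snrp, Snrnp, Hnrnp or U2af at the start) and by a mean of at least 1 CPM (read counts scaled to the same library total). Of 14086 genes with such a mean, 72 carried one of these symbols and are called members below. The rule left out Lsm7 at a mean of 0.995 CPM and Snrpn at 0.923 CPM, so that 72 of 74 matching rows remained, and Snrpg was just inside at 1.07 CPM. The rule itself uses no difference between genotypes.

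The spliceosome removes introns from newly made RNA. Small nuclear ribonucleoprotein particles (snRNPs), each a small RNA with a ring of Sm or LSm proteins and its own further proteins, recognise the splice sites, and U2AF and the SF3 complexes prepare the branch site. SR proteins mostly favour the use of an exon and hnRNPs often oppose it, so that their balance sets which exons are kept, and in brain these factors take part in the large range of neuronal splice forms. By known role the 72 members were 7 Sm ring proteins, 3 proteins of the U1 snRNP, 11 of the U2 snRNP with its SF3a and SF3b complexes, 3 U2AF proteins, 3 of the U4/U6.U5 tri-snRNP, 3 of the minor spliceosome, 11 LSm proteins, 11 SR proteins and 20 hnRNPs.

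Cortical RNA came from 88 mice of both sexes at 6.5 months of age, 1 library per mouse. All mice were homozygous for human APOE4 or APOE3 in place of mouse Apoe, on a C57BL/6 background. APP mice also carried APPswe and PSEN1dE9, human transgenes with familial Alzheimer mutations that run from a prion promoter, and Trem2ko mice lacked Trem2, a receptor of microglia, in every cell through 2 copies of the Trem2em2Adiuj allele. The 8 genotypes were APP/E4/Trem2ko (n = 16), APP/E4 (n = 14), APP/E3/Trem2ko (n = 14), APP/E3 (n = 14), E4/Trem2ko (n = 8), E4 (n = 6), E3/Trem2ko (n = 8) and E3 (n = 8), with equal numbers of both sexes except in E4 (4 females and 2 males). Here names without Trem2ko stand for wild-type Trem2 (Trem2WT) and names without APP for non-APP littermates. Tests were made with limma on log2(CPM + 0.5) over all 14086 genes, with genotype and sex in 1 model, and a gene was called where its Benjamini-Hochberg adjusted p was under 0.05. Fold changes are on that log2 scale, which understates the change of low genes, and are given ± SE.

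Recovered reads per library ran between 41300868 and 95505247 (median 49791438). Trem2 itself had a median of 2.15 CPM in APP/E4/Trem2ko mice, against 12.5 CPM in APP/E4 mice, and 2.19 CPM in APP/E3/Trem2ko mice, against 14.6 CPM in APP/E3 mice, and the highest Trem2ko mouse (4.65 CPM) lay below the lowest Trem2WT mouse (7.18 CPM). App had medians of 5040 CPM in APP/E4 mice and 2161 CPM in E4 mice. Cortical neuron markers were high in every group (summed medians between 11359 and 12892 CPM). Other features differed between groups. Keratin reads of stratified epithelium (Krt13, Krt4 and Krt6a, at least 1 CPM in sum) were present in 31 of 44 APOE4 mice and in 0 of 44 APOE3 mice. Rn45s, the precursor of the ribosomal RNAs, had medians between 4104 and 6289 CPM in the 4 APOE4 groups and between 1115 and 1276 CPM in the 4 APOE3 groups. At least 100 CPM of Ttr, a choroid plexus gene, was found in 9 mice, 5 of them APP/E3/Trem2ko, and at least 50 CPM of Alb in 4 mice, 3 of them APP/E4. The labels give no sequencing batch, so that batch and genotype cannot be told apart.

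Per kilobase of transcript the members were well expressed, with a median of 25.6 CPM per kb against 8.85 CPM per kb over all genes with a length. Hnrnpa2b1, an RNA-binding protein of mRNA transport, was the highest at 220 CPM per kb and Snrpg, a subunit of the Sm ring, the lowest at 1.01 CPM per kb. The hnRNPs had a median of 50.3 CPM per kb, the SR proteins 29.6, the Sm ring proteins 15.6 and the LSm proteins 10.9 CPM per kb. Member transcripts were short, with a median length of 1875 bases against 2760 bases over all genes. Their summed level had medians of 5719 CPM in APP/E4/Trem2ko, 5227 CPM in APP/E4, 5804 CPM in APP/E3/Trem2ko and 5571 CPM in APP/E3 mice, and of 5486 CPM in E4/Trem2ko, 5363 CPM in E4, 6276 CPM in E3/Trem2ko and 5872 CPM in E3 mice. In all 4 pairs the APOE4 group had the lower median, while single mice overlapped.

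The first question was how APOE4 differs from APOE3. APP/E4 mice had 31 lower and 3 higher members relative to APP/E3 mice, against 22.7% of all genes called lower and 10.9% called higher. The median log2 fold change was -0.14 over the members and -0.04 over all genes, and 54 of the 72 members lay below 0. By role, lower members ranged between 4 of 20 hnRNPs and 3 of 11 SR proteins at one end and 7 of 11 LSm proteins and 2 of 3 U1 proteins at the other. In whole tissue, fewer cells of a type and less RNA per cell cannot be told apart. The grid of fold changes gives every member in the 6 comparisons that called any.

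**Figure D1:**
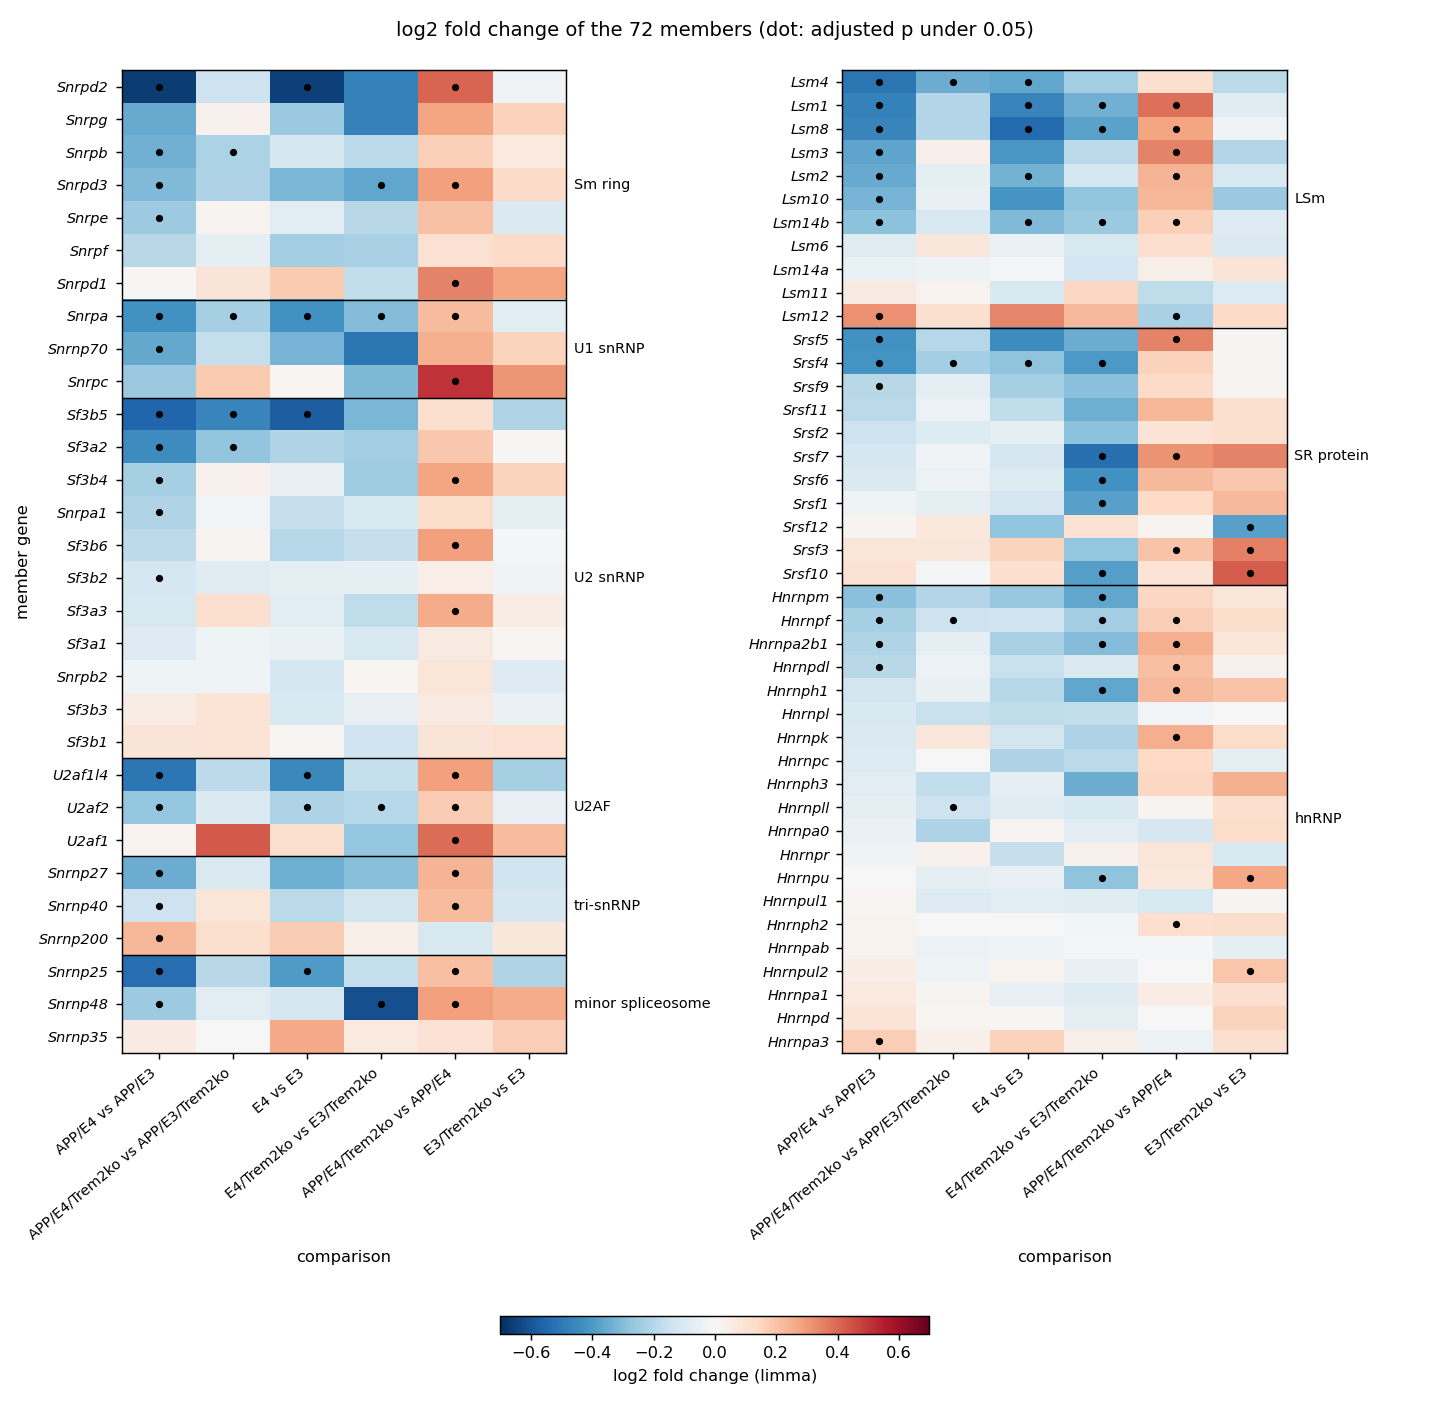
Colours give the log2 fold change of each of the 72 members (rows, grouped by role) in 6 comparisons (columns), and dots mark members with an adjusted p under 0.05. Dots lie mostly on blue in the 4 APOE comparisons (31, 8, 12 and 17 lower members) and on red in APP/E4/Trem2ko vs APP/E4 (29 higher, 1 lower).

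Of the 7 Sm ring proteins, which encircle the small nuclear RNAs of the major and minor spliceosomes, APP/E4 mice had lower levels of 4 (median -0.31) and higher levels of 0, relative to APP/E3 mice. Snrpd2 was at 9.37, 15.2 and 29.2 CPM (lowest, median and highest) in APP/E4 mice and at 18.9, 23.8 and 42.5 CPM in APP/E3 mice. The ranges overlapped, yet 9 of 14 APP/E4 mice were below the lowest APP/E3 mouse. The log2 fold change was -0.66 ± 0.15, or 1.59-fold lower (adjusted p = 0.000301). Levels of Snrpb were 40.6, 55.5 and 65.4 CPM as the lowest, median and highest APP/E4 mouse, against 61.3, 68.8 and 77.4 CPM in APP/E3 mice. It fell by 0.34 on the log2 scale (adjusted p = 6.59e-05), with 14 of 14 APP/E4 mice under the APP/E3 median. Snrpd3 (-0.31 ± 0.09, adjusted p = 0.00488) and Snrpe (-0.26 ± 0.10, adjusted p = 0.0338) were called too, the last not without any 1 of 6 mice. Snrpd1 did not pass the test, with 0.01 ± 0.10.

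The U1 snRNP binds the 5' splice site. In APP/E4 mice Snrpa had 18.4, 27.6 and 40.1 CPM (lowest, median, highest), against 33.9, 37.1 and 43.5 CPM in APP/E3 mice. This gene encodes a U1 protein that binds a stem loop of U1 RNA, and 12 of 14 APP/E4 mice lay below the lowest APP/E3 mouse. Its log2 fold change was -0.43 ± 0.07 (adjusted p = 3.59e-06). The lowest, median and highest APP/E4 mice had 50.95, 97.7 and 132 CPM of Snrnp70, and the APP/E3 mice 81.3, 124 and 149 CPM. These groups overlapped widely, and the change of -0.36 ± 0.13 (adjusted p = 0.0302) was not called without E3203, E3179 or E3475, all APP/E4 mice. The third U1 protein, Snrpc, was at -0.26 ± 0.13 and did not pass the test.

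In the U2 snRNP, which pairs with the branch site, 5 of 11 members were lower and 0 higher (median -0.12). Sf3b5 was at 15.8, 22.3 and 36.2 CPM (lowest, median and highest) in APP/E4 mice and at 27.9, 32.5 and 39.4 CPM in APP/E3 mice. Sf3b5 is a small subunit of SF3b, and 12 of 14 APP/E4 mice were below all APP/E3 mice (-0.56 ± 0.10, adjusted p = 5.98e-06). Levels of Sf3a2 were 18.5, 33.8 and 40.6 CPM as the lowest, median and highest APP/E4 mouse, against 38.5, 43.9 and 55.95 CPM in APP/E3 mice. For this subunit of SF3a 13 of 14 APP/E4 mice were below the APP/E3 range, and the log2 fold change was -0.44 ± 0.08 (adjusted p = 1.38e-05). Sf3b4 (-0.23), Snrpa1 (-0.21) and Sf3b2 (-0.12) were the other called members, the last not without E3475, an APP/E4 mouse. The large scaffold subunits Sf3b1 and Sf3b3 did not pass the test, at 0.09 ± 0.07 and 0.05 ± 0.05.

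Among the U2AF proteins, which read the end of the intron, 2 of 3 fell. In APP/E4 mice U2af2 had 80.3, 108 and 122 CPM (lowest, median, highest), against 116, 127 and 146 CPM in APP/E3 mice. The ranges met only at their edges, since 13 of 14 APP/E4 mice were below the lowest APP/E3 mouse. This subunit binds the polypyrimidine tract and changed by -0.27 ± 0.05 (adjusted p = 8.47e-06). The lowest, median and highest APP/E4 mice had 13.98, 18.4 and 25.3 CPM of U2af1l4, and the APP/E3 mice 20.05, 27.1 and 29.4 CPM. All 14 APP/E4 mice were under the APP/E3 median, and the change of -0.51 ± 0.07 had an adjusted p of 1.42e-07. U2af1, the small subunit that contacts the intron's last bases, was at 0.03 ± 0.15 with no call.

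The tri-snRNP brings in U4, U6 and U5. Snrnp200 was at 144, 163 and 193 CPM (lowest, median and highest) in APP/E4 mice and at 128, 138 and 164 CPM in APP/E3 mice. It encodes the Brr2 helicase that unwinds U4 from U6 and was 1 of the 3 higher members, with 7 of 14 APP/E4 mice above the highest APP/E3 mouse (0.23 ± 0.06, adjusted p = 0.000646). Snrnp27 (-0.35 ± 0.08) and Snrnp40 (-0.15 ± 0.06, adjusted p = 0.0419) were lower. Snrnp40, a U5 protein, was not called without any 1 of 13 mice.

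The minor spliceosome removes a rare class of introns with U11 and U12. Levels of Snrnp25 were 7.497, 8.67 and 14.03 CPM as the lowest, median and highest APP/E4 mouse, against 11.8, 13.8 and 15.6 CPM in APP/E3 mice. This U11/U12 protein had the smallest adjusted p of the members (-0.53 ± 0.08, adjusted p = 9.62e-08), and 11 of 14 APP/E4 mice lay below the APP/E3 range. Snrnp48 was lower by a smaller margin (-0.26 ± 0.10, adjusted p = 0.047) and lost its call without any 1 of 19 mice, and Snrnp35 was not called (0.05 ± 0.07).

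Several LSm proteins form a nuclear ring on U6 RNA and a cytoplasmic ring that takes part in mRNA decay. The 11 members of this class were chosen by symbol, and not all belong to these rings. Relative to APP/E3 mice, 7 of the 11 were lower and 1 higher in APP/E4 mice (median -0.33). In APP/E4 mice Lsm4 had 21.1, 28.3 and 41.7 CPM (lowest, median, highest), against 37.9, 39.98 and 47.5 CPM in APP/E3 mice. Lsm4 belongs to both rings, and 13 of 14 APP/E4 mice were below the lowest APP/E3 mouse (-0.51 ± 0.09, adjusted p = 2e-06). The lowest, median and highest APP/E4 mice had 3.097, 4.51 and 7.004 CPM of Lsm1, and the APP/E3 mice 5.84, 6.81 and 7.97 CPM. Lsm1 marks the cytoplasmic ring, again with 13 of 14 APP/E4 mice below the APP/E3 range (-0.47 ± 0.08, adjusted p = 8.6e-07). Lsm8 was at 7.53, 8.78 and 12.4 CPM (lowest, median and highest) in APP/E4 mice and at 9.46, 12.8 and 14.8 CPM in APP/E3 mice. Lsm8 takes its place in the nuclear ring and had 9 of 14 APP/E4 mice below that range (-0.46 ± 0.08, adjusted p = 4.67e-06). Both rings were thus represented among the lower members. Lsm12, which has an LSm domain but is in neither ring, was higher in APP/E4 mice (0.32 ± 0.08, adjusted p = 0.00182).

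SR proteins bind exons and recruit the splicing machinery, and 3 of 11 were lower (median -0.12). Levels of Srsf4 were 42.1, 55.6 and 62.9 CPM as the lowest, median and highest APP/E4 mouse, against 65.1, 73.7 and 84.04 CPM in APP/E3 mice. The groups did not overlap, all 14 APP/E4 mice being below the lowest APP/E3 mouse. Srsf4 fell by 0.42 on the log2 scale, 1.34-fold lower (adjusted p = 5.64e-07). Srsf5 (-0.43 ± 0.11, adjusted p = 0.00145) and Srsf9 (-0.20 ± 0.08, adjusted p = 0.0497) were the others, and Srsf9 lost its call in most fits with 1 mouse left out. Among the hnRNPs 4 of 20 were lower and 1 higher, with a median of -0.05 that was close to that of all genes. In APP/E4 mice Hnrnpf had 24.9, 29.5 and 35.6 CPM (lowest, median, highest), against 32.1, 34.7 and 37.8 CPM in APP/E3 mice. Hnrnpf, which binds runs of G, had 12 of 14 APP/E4 mice below the APP/E3 range despite its small change (-0.23 ± 0.04, adjusted p = 1.22e-05). Hnrnpm (-0.29 ± 0.07), Hnrnpa2b1 (-0.21 ± 0.07) and Hnrnpdl (-0.19 ± 0.08, adjusted p = 0.0365, not called without any 1 of 10 mice) were lower, and Hnrnpa3 (0.17 ± 0.06, adjusted p = 0.0146) was higher.

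**Figure D2:**
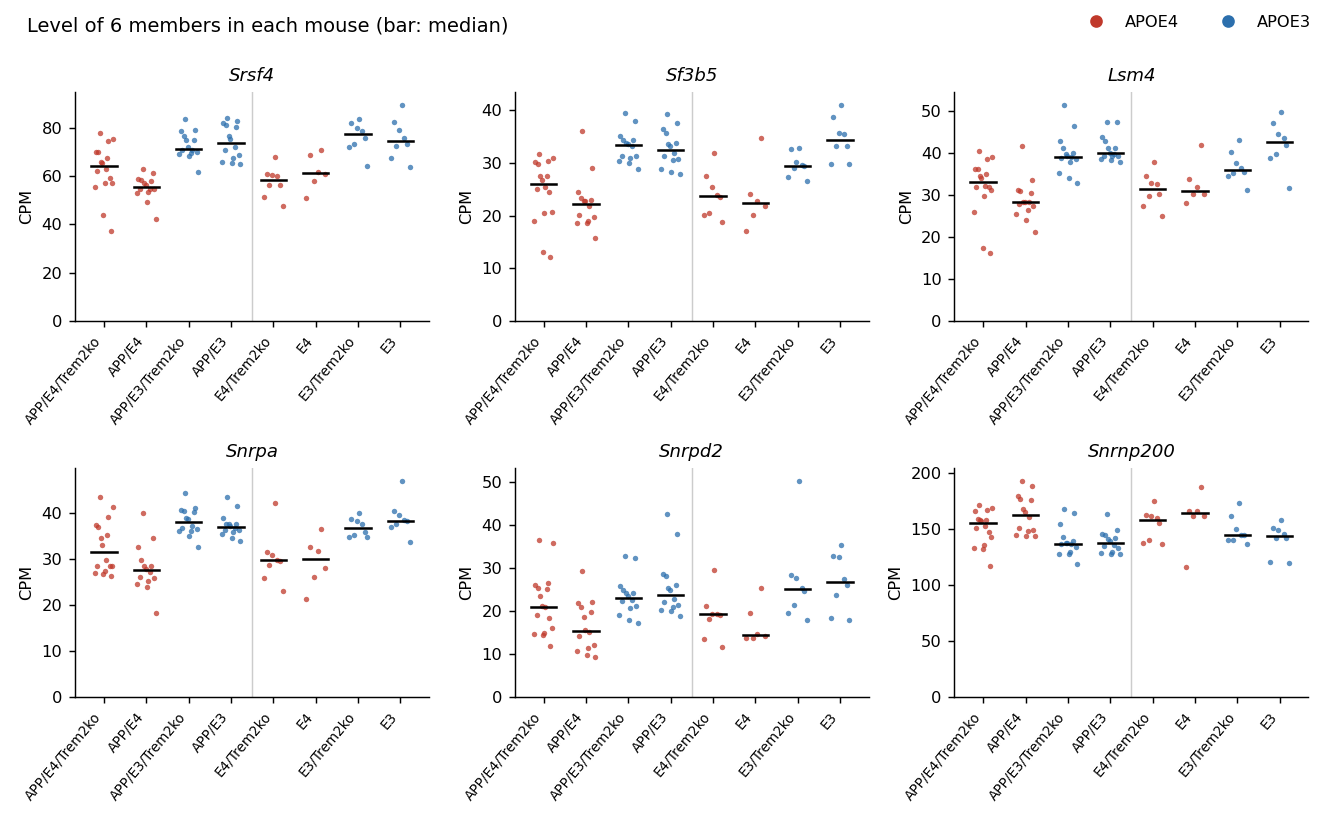
Each point is 1 mouse and each bar a group median, in CPM (y axis), for 6 members across the 8 genotypes (x axis), with APP mice left of the grey line. Srsf4 in APP/E4 mice (42.1 to 62.9 CPM) lies wholly below APP/E3 mice (65.1 to 84.0 CPM), while Snrnp200 runs the other way (medians of 163 and 138 CPM).

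Calls in APP/E4 vs APP/E3 depended on how the libraries were compared. TMM scaling gave 4 higher and 25 lower members, against 2216 higher and 2492 lower genes in all, where the unscaled CPM had 1530 and 3199. Leaving out the 10 APP/E4 mice with keratin reads kept 4 APP/E4 mice and gave 19 lower members and 0 higher (1601 and 643 of all genes). Among the 19 were Srsf4 at -0.47, Sf3a2 at -0.56 and U2af1l4 at -0.49. Of the 4 mice, E3475 had the lowest and E3327 the highest mean log2 level over the members among APP/E4 mice. Less the mean over all mice, these were -0.45 and 0.04. The part of E3475 in the 19 calls was not tested. With the log2 level of Rn45s as a further term 1 member was called, Lsm4 at -0.41 (adjusted p = 0.0398, alternatives between 1.1e-06 and 0.0398), and 172 genes in all. The members' median was then 0.03, with 30 of 72 below 0, against -0.14 and 54 of 72 without the term, and 26 members had the other sign.

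The same contrast was measured in 3 further pairs of groups that share no mouse with the first. Without Trem2, 8 members were lower and 0 higher in APP/E4/Trem2ko than in APP/E3/Trem2ko mice, against 3.02% and 1.44% of all genes (median -0.04 over members, -0.01 over all genes). At an unadjusted p under 0.05, 3 members were higher (7.33% of all genes), and edgeR and DESeq2 called 1 higher each. The lowest, median and highest APP/E4/Trem2ko mice had 12.1, 26.1 and 31.7 CPM of Sf3b5, and the APP/E3/Trem2ko mice 28.9, 33.4 and 39.6 CPM. Of the 16 APP/E4/Trem2ko mice, 11 lay below the APP/E3/Trem2ko range (-0.46 ± 0.09, adjusted p = 0.00125). Lsm4 (-0.35 ± 0.08), Srsf4 (-0.24 ± 0.06), Sf3a2 (-0.27 ± 0.08), Snrpa (-0.23 ± 0.07), Snrpb (-0.22 ± 0.07), Hnrnpf (-0.15 ± 0.04) and Hnrnpll (-0.14 ± 0.04) were the other lower members. Without the mice high in Ttr 0 members were called (43 of all genes lower, 37 higher). With the Rn45s term 1 was (22 of all genes lower, 52 higher), U2af1, higher by 0.64 (adjusted p = 0.0473, alternatives between 0.0109 and 0.488). With that term 22 of 72 members were below 0 (47 without it). Leaving out mice with keratin reads kept 6 APP/E4/Trem2ko mice and gave 5 lower and 2 higher members (518 and 284 of all genes). The median was then 0.0028 over members and 0.03 over all genes, with 36 of 72 members below 0. The count was 4 without any 1 of D3885 (APP/E3/Trem2ko), E4132 or E3322 (APP/E4/Trem2ko), and 5 without D3627 or D3939 (APP/E3/Trem2ko) or E3467 or E4127 (APP/E4/Trem2ko).

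In non-APP mice with Trem2, 12 members were lower and 0 higher in E4 than in E3 mice, against 6.01% and 1.72% of all genes (median -0.13 over members, -0.04 over all genes). At an unadjusted p under 0.05, 3 were higher (6.46% of all genes), and edgeR and DESeq2 called 1 higher each. LSm proteins made up 5 of the 12. Lsm8 was at 7.97, 8.61 and 11.1 CPM (lowest, median and highest) in E4 mice and at 11.8, 13.2 and 15.3 CPM in E3 mice. The groups did not overlap, with 6 of 6 E4 mice below the lowest E3 mouse (-0.54 ± 0.12, adjusted p = 0.00196). Levels of Lsm1 were 4.09, 5.36 and 7.13 CPM as the lowest, median and highest E4 mouse, against 6.79, 7.74 and 8.43 CPM in E3 mice. A single E4 mouse reached into the E3 range and the other 5 were below it (-0.46 ± 0.11, adjusted p = 0.00515). Sf3b5 (-0.58 ± 0.14), U2af1l4 (-0.45 ± 0.11) and Snrpa (-0.42 ± 0.10) likewise had 5 of 6 E4 mice below the E3 range. Snrpd2 (-0.65 ± 0.21) had 4 of 6. Without the E4 mouse E3473 Lsm8 was the 1 member still called, without E3357 19 members were, without E3459 or E3471 7, and without the E3 mice X0158 or D3810 7 and 6. With TMM scaling 7 were lower and 1 higher (536 and 387 of all genes, 846 and 242 without it). Without mice with keratin reads (2 E4 mice left) 0 members were called, and of all genes 5 were lower and 5 higher. The Rn45s term left 0 members (36 of 72 below 0, against 58 without it), and of all genes 10 lower and 8 higher. The fold changes of the 6 oligodendrocyte markers were all above 0 (2 called higher, median 0.83), with summed levels between 2613 and 4284 CPM in E4 mice and between 679 and 3292 CPM in E3 mice. Those of the 9 striatal neuron markers were all above 0 with 0 called (median 0.60), and their summed medians were 1010 CPM in E4 and 380.5 CPM in E3 mice. With a term for striatal markers 12 members were lower and 0 higher (916 and 270 of all genes), with a median of -0.12 over members. The part of the oligodendrocyte markers in the result was not tested.

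In E4/Trem2ko mice 17 members were lower and 0 higher than in E3/Trem2ko mice, against 4.68% and 1.53% of all genes (median -0.20 over members, -0.05 over all genes). At an unadjusted p under 0.05, 1 member was higher (6.58% of all genes), and edgeR and DESeq2 called 0 higher. SR proteins and hnRNPs gave 5 lower members each. In E4/Trem2ko mice Srsf7 had 50.8, 57.2 and 71.2 CPM (lowest, median, highest), against 67.6, 79.2 and 110.3 CPM in E3/Trem2ko mice. Of 8 E4/Trem2ko mice 7 were below the E3/Trem2ko range (-0.53 ± 0.11, adjusted p = 0.00322). The lowest, median and highest E4/Trem2ko mice had 47.6, 58.4 and 67.9 CPM of Srsf4, and the E3/Trem2ko mice 64.3, 77.4 and 83.8 CPM. Again 7 of 8 lay below that range (-0.40 ± 0.09, adjusted p = 0.00332). Srsf1, a founding SR protein, changed by -0.38 ± 0.09, Srsf6 by -0.42 ± 0.11 and Srsf10 by -0.39 ± 0.10. Among the hnRNPs Hnrnpm (-0.37 ± 0.09), Hnrnph1 (-0.36 ± 0.10), Hnrnpa2b1 (-0.30 ± 0.09), Hnrnpu (-0.28 ± 0.07) and Hnrnpf (-0.25 ± 0.06) were lower. Snrnp48 of the minor spliceosome had the largest called change (-0.62 ± 0.14, adjusted p = 0.00379). Without mice with keratin reads 1 E4/Trem2ko mouse was left, and the median was -0.11 over members and -0.06 over all genes. The Rn45s term left 0 members (45 of 72 below 0, against 64 without it), and of all genes 6 lower and 5 higher. TMM scaling gave 12 lower and 0 higher (399 and 400 of all genes, 659 and 216 without it). Of the E3/Trem2ko mice, leaving out D3893 gave 7 members, and D3887 or D3940 9. Of the E4/Trem2ko mice, leaving out E3740 gave 8, E3446 9 and E3261 11. Without mice with albumin reads 8 were called (240 of all genes lower, 96 higher).

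Across these 4 comparisons, which have no mice in common, Srsf4 and Snrpa were lower in all 4. Hnrnpf, Lsm1, Lsm4, Lsm8, Lsm14b, Sf3b5 and U2af2 were lower in 3 of them, 10 members in 2, 19 in 1 and 34 in none. The same tally over all genes is not given here, so that this recurrence cannot be called particular to the members. All 12 members lower in E4 vs E3 were among the 31 of APP/E4 vs APP/E3 (38.7% of the 31), where 779 of 846 lower genes, or 92.1%, were shared in the same way. Of the 8 in APP/E4/Trem2ko vs APP/E3/Trem2ko, 7 were among the 31 (84.2% of all lower genes), and of the 17 in E4/Trem2ko vs E3/Trem2ko 11 were (68.7% of all lower genes). A log2 fold change below 0 in all 4 comparisons was found for 40 of the 72 members. The median over all genes was below 0 in each of them too (-0.04, -0.01, -0.04 and -0.05). The share of all genes below 0 in all 4 is not given here.

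Srsf4, Snrpa and Hnrnpf stood among these 9 members, and the 250 bases before their transcription starts are shown as examples of the promoters of these genes (RefSeq, GRCm38.p6). Srsf4 lies at chr4:131873387-131873636 on the plus strand, Snrpa at chr7:27196272-27196521 on the minus strand and Hnrnpf at chr6:117900090-117900339 on the plus strand, these being the positions of the printed bases. Capitals mark the ETS motif CCGGAAG, the E-box CACGTG and the GC box GGGCGG on either strand.
Srsf4: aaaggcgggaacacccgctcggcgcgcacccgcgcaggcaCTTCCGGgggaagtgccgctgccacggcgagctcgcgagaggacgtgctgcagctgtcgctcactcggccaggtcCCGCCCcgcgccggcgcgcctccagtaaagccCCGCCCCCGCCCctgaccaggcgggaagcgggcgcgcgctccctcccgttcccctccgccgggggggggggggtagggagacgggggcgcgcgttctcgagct
Snrpa: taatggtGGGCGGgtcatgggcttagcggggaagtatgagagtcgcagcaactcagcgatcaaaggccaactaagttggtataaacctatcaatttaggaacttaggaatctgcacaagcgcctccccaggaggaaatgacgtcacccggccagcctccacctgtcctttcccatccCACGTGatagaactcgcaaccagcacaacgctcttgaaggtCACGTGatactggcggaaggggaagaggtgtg
Hnrnpf: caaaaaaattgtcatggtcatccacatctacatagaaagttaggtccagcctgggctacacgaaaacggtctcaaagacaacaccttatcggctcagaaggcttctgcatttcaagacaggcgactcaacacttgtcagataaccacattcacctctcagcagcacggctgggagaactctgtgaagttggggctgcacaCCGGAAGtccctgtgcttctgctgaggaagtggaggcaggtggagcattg
Promoters were found for 61 members and for 10903 tested genes. The ETS motif was present in 17 of the 61 member promoters (27.9%) and in 12.8% of all, the GC box in 42 (68.9%) and in 59.3%, and the E-box in 3 (4.92%) and in 8.42%. GC boxes can overlap one another in these counts, and a promoter was counted once. Of the 24 promoters of members lower in APP/E4 vs APP/E3, 6 held the ETS motif, 16 the GC box and 1 the E-box. The median GC content was 60.4% over member promoters and 60% over all.

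The second question was the effect of Trem2 deletion. In APP/E4/Trem2ko mice 29 members were higher and 1 lower than in APP/E4 mice, against 11.3% and 2.53% of all genes (median 0.16 over members, 0.04 over all genes). The APP/E4 mice are the same as those in the first comparison, so that members low in APP/E4 mice appear in both, and the values of each stand side by side in the grid of fold changes. All 3 U2AF proteins were higher, as were 6 hnRNPs, 5 LSm, 3 SR, 3 Sm ring and 3 U2 snRNP proteins. Lsm1 was at 4.24, 6.42 and 8.18 CPM (lowest, median and highest) in APP/E4/Trem2ko mice and at 3.097, 4.51 and 7.004 CPM in APP/E4 mice. The ranges overlapped, and 5 of 16 APP/E4/Trem2ko mice were above the highest APP/E4 mouse. Lsm1 had the smallest adjusted p of the members (0.39 ± 0.07, adjusted p = 0.000514) and was called under all 12 alternatives (adjusted p between 0.00044 and 0.0475). Levels of Snrpd1 were 12.3, 15.7 and 34.6 CPM as the lowest, median and highest APP/E4/Trem2ko mouse, against 9.77, 13.7 and 15.2 CPM in APP/E4 mice. For this Sm ring protein 10 of 16 APP/E4/Trem2ko mice exceeded the APP/E4 range (0.35 ± 0.09, adjusted p = 0.00965). In APP/E4/Trem2ko mice Hnrnpa2b1 had 257, 375 and 447 CPM (lowest, median, highest), against 219, 313 and 360.4 CPM in APP/E4 mice. Above the APP/E4 range were 9 of 16 APP/E4/Trem2ko mice (0.25 ± 0.06, adjusted p = 0.0069).

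Other called members in APP/E4/Trem2ko vs APP/E4 included Sf3a3 of the U2 snRNP (0.26 ± 0.06), Snrpc of the U1 snRNP (0.51 ± 0.13), Srsf7 (0.31 ± 0.08) and Snrnp40 (0.22 ± 0.06). U2af1l4 (0.28 ± 0.07), U2af2 (0.18 ± 0.05) and Hnrnpf (0.17 ± 0.04) rose as well. Lsm12 was the lower one (-0.23 ± 0.08, adjusted p = 0.0498). Srsf4 did not pass (0.16 ± 0.06, adjusted p = 0.0797). Rn45s had a median of 4104 CPM in APP/E4/Trem2ko and 6289 CPM in APP/E4 mice. TMM scaling gave 16 higher and 3 lower members (807 and 647 of all genes, 1588 and 356 without it). Offsets for transcript length and GC content gave 2 and 1 (292 and 293 of all genes). The Rn45s term left 2 higher, Lsm1 at 0.31 and Sf3a3 at 0.21 (120 of all genes higher, 27 lower). A model of these 2 genotypes alone left 1 (58 of all genes higher, 17 lower). Without E3203, an APP/E4 mouse, 15 members were called, and without mice high in Ttr 2 (138 of all genes higher, 35 lower).

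In the other Trem2 comparisons few members changed. Between APP/E3/Trem2ko and APP/E3 mice 0 members were called by limma, edgeR or DESeq2 (0.319% of all genes by limma), and 11 had an unadjusted p under 0.05 (5.56% of all genes). Between E4/Trem2ko and E4 mice the count was 0 by the same tools (0.0994% of all genes), with 1 at an unadjusted p under 0.05 (6.47% of all genes). In E3/Trem2ko mice 4 members were higher and 1 lower than in E3 mice, against 1.26% and 1.65% of all genes (median 0.06 over members, -0.0035 over all genes). The lowest, median and highest E3/Trem2ko mice had 43.8, 63.7 and 71.1 CPM of Srsf10, and the E3 mice 33.5, 42.6 and 60.9 CPM. Srsf10 is an SR protein that represses splicing when dephosphorylated, and 5 of 8 E3/Trem2ko mice were above the E3 range (0.42 ± 0.10, adjusted p = 0.0219). Srsf12 was at 14.3, 15.3 and 20.8 CPM (lowest, median and highest) in E3/Trem2ko mice and at 16.98, 20.7 and 27.2 CPM in E3 mice. This relative of Srsf10 went the other way, with 6 of 8 mice below the E3 range (-0.38 ± 0.09, adjusted p = 0.0219). Srsf3 (0.35 ± 0.09, adjusted p = 0.0311), Hnrnpu (0.27 ± 0.07, adjusted p = 0.0329) and Hnrnpul2 (0.19 ± 0.06, adjusted p = 0.045) were higher. The E3/Trem2ko mice also serve in E4/Trem2ko vs E3/Trem2ko, where Srsf10 was at -0.39 ± 0.10, Srsf3 at -0.27 ± 0.09 and Hnrnpu at -0.28 ± 0.07. Without D3502, an E3 mouse, or D3893, an E3/Trem2ko mouse, 0 of the 5 were called, without D3722 or X0158 (E3) or D3887 (E3/Trem2ko) 1, without D3940 (E3/Trem2ko) 2, and without D3514 or D3810 (E3) or D3834 (E3/Trem2ko) 3. A term for striatal markers, whose summed medians were 266 CPM in E3/Trem2ko and 380.5 CPM in E3 mice, left 1 member called, and a model of these 2 genotypes alone 1.

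**Figure D3:**
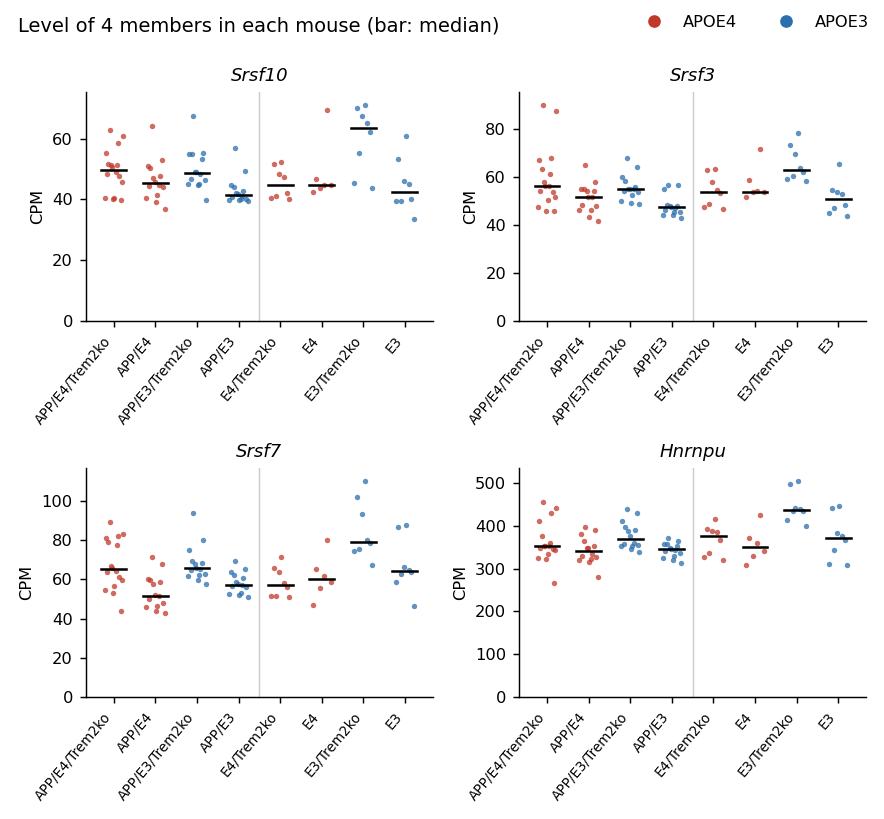
Each point is 1 mouse and each bar a group median, in CPM (y axis), for 3 SR proteins and Hnrnpu across the 8 genotypes (x axis). The E3/Trem2ko group has the highest median for each, for example 63.7 CPM of Srsf10 against 42.6 CPM in E3 mice and 44.7 CPM in E4/Trem2ko mice.

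APP transgenes were the third factor, and limma called 0 members in each of the 4 comparisons of APP with non-APP mice. The shares of all genes called were 0.149% in APP/E3/Trem2ko vs E3/Trem2ko, 0.0781% in APP/E4/Trem2ko vs E4/Trem2ko, 0.0213% in APP/E3 vs E3 and 0.0142% in APP/E4 vs E4. In the same order 14, 12, 8 and 4 of the 72 members had an unadjusted p under 0.05, as did 16.7%, 18.5%, 5.99% and 9.29% of all genes. edgeR called 0 except for Lsm6 in APP/E4/Trem2ko vs E4/Trem2ko. DESeq2 called 3 lower in APP/E3/Trem2ko vs E3/Trem2ko (Hnrnpu, Srsf1 and Srsf7), 3 higher in APP/E4/Trem2ko vs E4/Trem2ko (Lsm6, Hnrnpc and Snrnp40) and 0 in the others. Levels of Lsm6 were 19.6, 27.7 and 36.6 CPM as the lowest, median and highest APP/E4/Trem2ko mouse, against 20.1, 22.2 and 24.98 CPM in E4/Trem2ko mice. The ranges overlapped, and the limma log2 fold change of this LSm ring protein was 0.27 ± 0.06 (adjusted p = 0.064). Leaving out single mice gave between 0 and 3 calls over the 4 comparisons, with 3 without E3702, an APP/E4/Trem2ko mouse.

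Whether the APOE difference depends on Trem2 or on APP was tested with interaction terms, which limma called for 0 members. The shares of all genes were 0.369% for APOE by Trem2 in APP mice, 0.0142% for APOE by Trem2 in non-APP mice and 0% for APOE by APP with Trem2WT. At an unadjusted p under 0.05 there were 18, 7 and 1 members, against 15.5%, 6.77% and 6.08% of all genes, and edgeR and DESeq2 called 0 in each. In APP mice Snrnp25 had the smallest p (0.34 ± 0.11, adjusted p = 0.107), a positive value meaning a less negative APOE4 difference without Trem2. In non-APP mice it was Srsf10 (-0.50 ± 0.15, adjusted p = 0.515). The difference between the APOE comparisons with and without Trem2 in APP mice was thus tested for all 72 members, and 0 passed. In APP mice U2af1 passed (adjusted p = 0.0384, alternatives up to 0.899) when mice with keratin reads were left out. Leaving out E3327, an APP/E4 mouse, gave 2 members.

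Fold changes ran with transcript length in the 4 APOE comparisons, APP/E4/Trem2ko vs APP/E4 and E3/Trem2ko vs E3, in members and in all genes. For APP/E3/Trem2ko vs APP/E3 they did so in members only. In APP/E4 vs APP/E3 Spearman's rho across genes was 0.61 over the 72 members and 0.52 over 13935 genes, as a description over genes that share libraries. Of the 14 members under 1000 bases 10 were lower (55.7% of all such genes), of 23 members of 1000 to under 2000 bases 14 (42.6%), of 24 of 2000 to under 3000 bases 6 (22.8%), and of 11 of 3000 bases or more 1 (6.26%). In APP/E4/Trem2ko vs APP/E4, which shares the APP/E4 mice, rho was -0.58 and -0.50. For E4 vs E3 it was 0.43 and 0.39, for E4/Trem2ko vs E3/Trem2ko 0.29 and 0.24, and for APP/E4/Trem2ko vs APP/E3/Trem2ko 0.19 and 0.30. In the other Trem2ko comparisons it was 0.24 and 0.22 for E3/Trem2ko vs E3, 0.26 and 0.0091 for APP/E3/Trem2ko vs APP/E3, and 0.08 and 0.05 for E4/Trem2ko vs E4. With offsets for length and GC content in each library 21 members were lower and 6 higher in APP/E4 vs APP/E3, against 1670 and 1528 of all genes. The part of length in these differences was not tested beyond this.

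**Figure D4:**
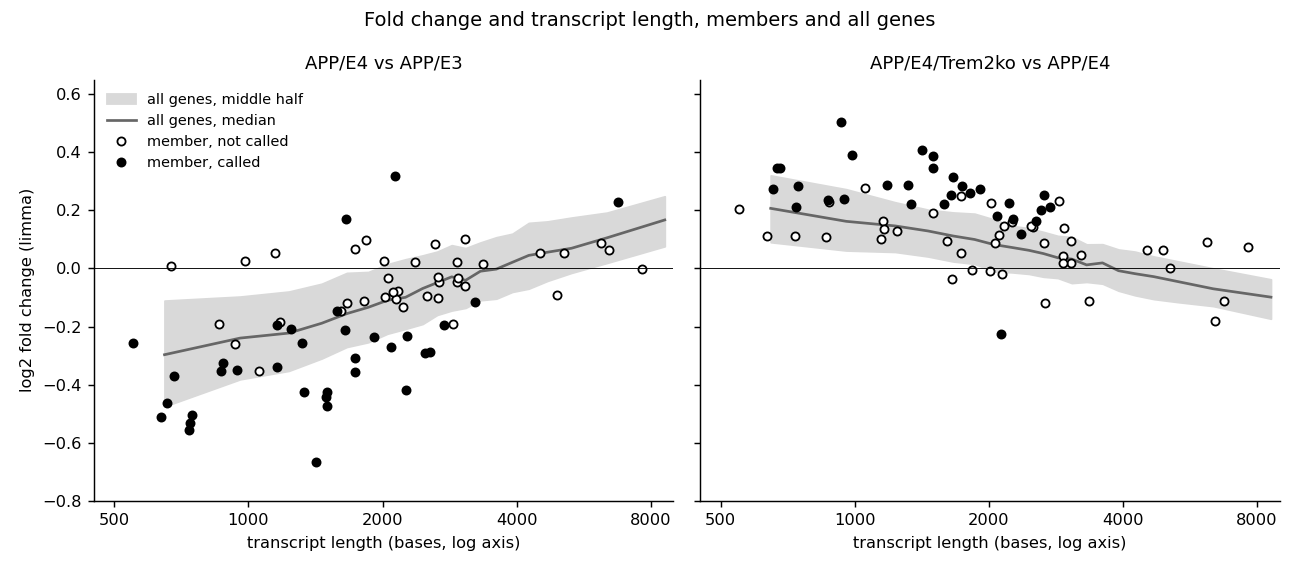
Points give the log2 fold change (y axis) and transcript length in bases (x axis, log scale) of the 72 members, filled where called, and the grey line and band give the median and interquartile range of all genes along length. Short members lie low in APP/E4 vs APP/E3 (left, rho 0.61) and high in APP/E4/Trem2ko vs APP/E4 (right, rho -0.58), along the band of all genes.

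The members ran against Rn45s between mice of the 4 APOE4 groups, and also between E3/Trem2ko mice. The mean of the 72 members, as log2(CPM + 0.5) less its mean over all mice, had a median of -0.12 in APP/E4 mice and 0.03 in APP/E3 mice. Within the APP/E4 mice its Pearson correlation with log2 Rn45s was -0.69 (Spearman -0.63, n = 14), and -0.67 without the 2 mice farthest in Rn45s. In APP/E4/Trem2ko mice the correlation was -0.70 (Spearman -0.59, n = 16), in E4/Trem2ko mice -0.68 (Spearman -0.69, n = 8) and in E4 mice -0.99 (Spearman -1, n = 6), and without the 2 farthest mice of each group -0.66, -0.55 and -0.99. In the APOE3 groups the values were -0.06 in APP/E3/Trem2ko (n = 14), -0.14 in APP/E3 (n = 14), -0.54 in E3/Trem2ko (n = 8) and -0.05 in E3 mice (n = 8), and without the 2 farthest mice of each -0.37, -0.28, -0.63 and 0.31. These are descriptions over mice, and the labels do not say which libraries were prepared together. Rn45s followed the APOE genotype, with 32 of 44 APOE4 mice above the highest APOE3 mouse. The models with Rn45s as a term therefore cannot tell Rn45s and APOE apart, and the part of Rn45s in the APOE difference was not tested. The 4 stratified epithelium genes tested were all higher in each of the 4 APOE comparisons, with summed levels of the list between 0.0354 and 79.1 CPM in APP/E4 mice (median 18.5 CPM) and between 0.00 and 0.156 CPM in APP/E3 mice.

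**Figure D5:**
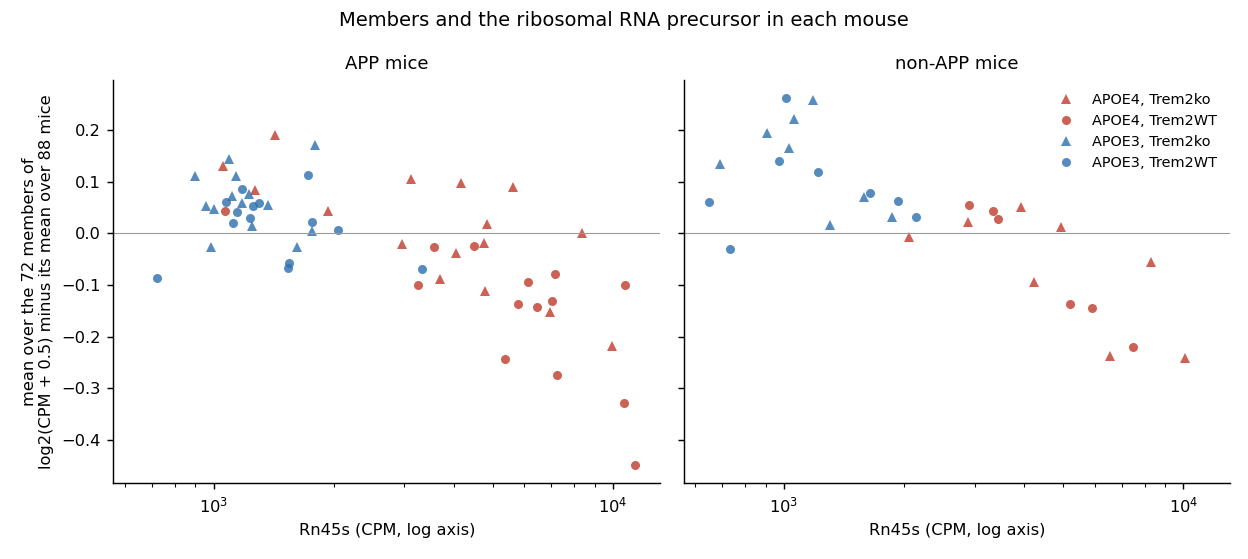
Each point is 1 mouse, with Rn45s in CPM (x axis, log scale) and the mean over the 72 members of log2(CPM + 0.5) less its mean over the 88 mice (y axis), for APP mice (left) and non-APP mice (right). Of 44 APOE4 mice (red) 32 lie to the right of the highest APOE3 mouse (blue, 3332 CPM) and 2 to the left of the APOE3 median, and within APP/E4 mice the members fall as Rn45s rises (Pearson -0.69).

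Apoe lies on chromosome 7 (chr7:19696109-19699188, GRCm38, GENCODE vM21), as do 9 members. Snrpd2 is the nearest, at chr7:19149722-19153542 and 0.546 Mb away. Hnrnpul1 lies at 6.03 Mb, Snrpa at 7.49 Mb, Hnrnpl at 9.11 Mb, U2af1l4 at 10.9 Mb, U2af2 at 14.6 Mb, Lsm14a at 14.6 Mb, Snrnp70 at 25.7 Mb and Snrpa1 at 46.4 Mb. Of the 9, Snrpd2, Snrpa, U2af1l4, U2af2, Snrnp70 and Snrpa1 were lower in APP/E4 vs APP/E3, against 25.4% of the 1059 chromosome 7 genes tested and 22.7% of all genes. Hnrnpul1 (0.02 ± 0.04), Hnrnpl (-0.10 ± 0.06) and Lsm14a (-0.05 ± 0.04) were not called. DNA that came along with the human APOE genes cannot be told apart from APOE at these loci.

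Other genes of the pathway, 131 in 6 lists, were also tested. In APP/E4 vs APP/E3 39 of them were lower and 15 higher (29.8% and 11.5%, against 22.7% and 10.9% of all genes, median -0.08). In APP/E4/Trem2ko vs APP/E3/Trem2ko 4 were lower (3.05%, against 3.02% of all genes) and 0 higher. In E4 vs E3 14 were lower (10.7%, against 6.01%) and 1 higher, and in E4/Trem2ko vs E3/Trem2ko 21 (16.03%, against 4.68%) and 1. In APP/E4/Trem2ko vs APP/E4 32 were higher (24.4%, against 11.3%) and 2 lower. The exon junction complex, which marks spliced mRNA, had 7 of 13 lower in APP/E4 vs APP/E3 (53.8%), with Eif4a3 at -0.44 ± 0.07, Magohb at -0.55 ± 0.11 and Rbm8a at -0.24 ± 0.04. It had 7 of 13 lower in E4/Trem2ko vs E3/Trem2ko too, with Acin1 at -0.60 ± 0.13 and Pnn at -0.45 ± 0.12. Of 35 further proteins of the tri-snRNP and the Prp19 complex 15 were lower (42.9%) and 4 higher in APP/E4 vs APP/E3, with Ppil1 at -0.52 ± 0.08 and Bcas2 at -0.33 ± 0.06. That list also holds Phf5a, a subunit of SF3b, at -0.50 ± 0.08. Tissue regulators of splicing were divided, with 5 lower (12.8%) and 8 higher (20.5%) of 39. Elavl1, which binds AU-rich RNA, was lower in all 4 APOE comparisons, at -0.14, -0.14, -0.16 and -0.17. Mbnl1, a regulator of developmental splicing, was higher by 0.33 ± 0.07 and Ewsr1 was at -0.31 ± 0.07. In the SMN complex and its partners, which load Sm rings onto RNA, 4 of 15 were lower (26.7%, close to the share of all genes) and 1 higher, with Gemin7 at -0.40 ± 0.07, Smn1 at -0.21 ± 0.07 and Gemin5 at 0.18 ± 0.05. Late factors and helicases had 6 of 19 lower (31.6%), with Cwc27 at -0.39 ± 0.06. Among 10 kinases and phosphatases of SR proteins and their partners 2 were lower and 2 higher, with Clk2 at -0.32 ± 0.08 and Srpk1 at 0.24 ± 0.06.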

How the data were processed

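RNA of cortex from 88 mice was sequenced, and a single table held 1 column per mouse. The authors counted reads with featureCounts on the mm10 genome and deposited CPM values made with edgeR. Of 14497 rows, 46 exact repeats were removed, and 14086 genes that averaged 1 CPM or more were tested. The test was limma 3.58.1 in R 4.3.3 with a mean-variance trend and robust moderation, on log2(CPM + 0.5), with genotype and sex as terms and Benjamini-Hochberg adjustment over all genes. Whole read counts were recovered from the deposited CPM in all 88 libraries (100% of values within 0.01 of a whole number, between 41300868 and 95505247 reads) and tested with edgeR 4.0.16 and DESeq2 1.42.0 as alternatives. Other alternatives were TMM scaling, a pseudocount of 1, no filter, the compared genotypes alone, offsets for length and GC content, a term for striatal markers, and leaving out mice with keratin reads, with at least 100 CPM of Ttr, or each mouse in turn. Leaving out 4 mice with at least 50 CPM of Alb and a term for log2 Rn45s were chosen after seeing the data. Mice are separate animals named by the label's number. Lengths and positions came from GENCODE vM21. Only the main limma fit was tested on simulated data. The simulated libraries held no differences in Rn45s, keratin reads or length, so that the effect of these on the calls was not simulated.

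Members and lists were chosen with earlier results of these data known. Named members were, per role, up to 3 called in each direction with the smallest p in APP/E4 vs APP/E3, those called in that and another APOE comparison, up to 10 by p in Trem2ko, APP or interaction comparisons, and those on chromosome 7. Of each other list up to 3 called genes by p were named in each comparison. Further members, those without a call among them, were named after their values were seen. No column of the authors' own comparisons was used.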

Additional observations from a re-analysis of the deposited data

Results flagged for a closer look

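In 12 of 164 groups of 6 or 8 mice 1 mouse stood apart from the others by Dixon's test at 95%, and chance alone flags about 1 group in 20. The E4 mouse E3679 was the highest of its group for Srsf10 (69.3 CPM, next 46.8 CPM), Srsf3 (71.97 CPM, next 58.9 CPM), Hnrnpul2 (389 CPM, next 355 CPM) and Lsm14a (83.7 CPM, next 70.0 CPM). The E4 mouse E3357 was lowest for Snrnp200 (116 CPM, next 162 CPM) and highest for Snrpd3 (52.8 CPM, next 38.1 CPM). The E3/Trem2ko mouse D3942 was highest for Snrpd2 (50.1 CPM, next 28.4 CPM) and Snrpc (4.28 CPM, next 2.95 CPM), and D3833 of the same group was lowest for Snrpb (49.4 CPM, next 70.0 CPM). Among E4/Trem2ko mice E3445 was highest for Snrpa (42.3 CPM, next 31.5 CPM) and E3261 lowest for Lsm14a (61.3 CPM, next 67.8 CPM). In E3 mice D3514 was lowest for Hnrnpul1 (101 CPM, next 110.2 CPM).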

How the results depend on the processing

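Counts of called members depended on the setting, as did those of all genes. For APP/E4 vs APP/E3 (34) the count was 1 with the Rn45s term and 19 without mice with keratin reads, and 27 to 36 without single mice. For APP/E4/Trem2ko vs APP/E3/Trem2ko (8) it was 1 with the Rn45s term, 1 with these genotypes alone and 0 without mice high in Ttr, and 4 to 11 without single mice. For E4 vs E3 (12) it was 0 with the Rn45s term, 4 with these genotypes alone and 0 without keratin reads, and 1 to 19 without single mice. For E4/Trem2ko vs E3/Trem2ko (17) it was 0 with the Rn45s term, 11 by edgeR and 8 without albumin reads, and 7 to 20 without single mice. Leaving out mice with keratin reads kept 1 E4/Trem2ko mouse, so no count is given for it. The 4 Trem2ko comparisons (35 calls) had 7 with the Rn45s term, 8 with length and GC offsets, 2 with the compared genotypes alone, 20 without albumin reads and 7 without mice high in Ttr, and 20 to 38 without single mice (20 without E3203 or E3475 of APP/E4, 22 without E3738 of APP/E4/Trem2ko). The APP comparisons (0) had 6 by DESeq2, 1 by edgeR and 1 with TMM scaling, and 0 to 3 without single mice. The interactions (0) had 1 without keratin reads, and 0 to 2 without single mice. The causes were not tested, except that leaving mice out also leaves fewer samples. With the Rn45s term 30 members were below 0 in APP/E4 vs APP/E3 (54 without it), 22 in APP/E4/Trem2ko vs APP/E3/Trem2ko (47), 36 in E4 vs E3 (58) and 45 in E4/Trem2ko vs E3/Trem2ko (64). Of the named called members, the sign changed in APP/E4 vs APP/E3 for Hnrnpa2b1 (0.030), Snrnp40 (0.0092), Snrnp70 (0.064), Snrpd3 (0.055) and Srsf5 (0.035), in APP/E4/Trem2ko vs APP/E3/Trem2ko for Snrpa (0.021), and in E4/Trem2ko vs E3/Trem2ko for Snrpa (0.030) and Snrpd3 (0.0057). Without keratin reads it did so for Hnrnpa3 in APP/E4 vs APP/E3 (-0.018) and Snrpa in E4/Trem2ko vs E3/Trem2ko (0.16), and with length and GC offsets for Srsf9 in APP/E4 vs APP/E3 (0.056), none of them with a call. Both with and without TMM scaling the median over all genes was within 0.1 of 0 on the log2 scale in each comparison, while calls of single genes changed. No paired analysis was possible because the groups share no replicate numbers.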
